A study of Mus musculus with 6 samples.

Results

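The GIMAP genes (GTPases of immunity-associated proteins) measured here were Gimap1, Gimap3, Gimap4, Gimap5, Gimap6, Gimap7, Gimap8 and Gimap9, 8 of the 26754 genes in each deposited table. They were taken by gene symbol, and they were chosen by their measured RPKM (reads scaled to gene length and to the reads in all genes), since they were known to be lower on day 14 than on day 7 in these same libraries. Their day 7 and day 14 values are therefore a description and carry no test. The study took B16 melanoma tumours, grown under the skin of the right flank of female C57BL/6J mice aged 6 to 8 weeks from 1000000 implanted cells, and selected cells with magnetic microbeads against CD8a. The 2 groups, day 7 and day 14 after implantation, differed by the label only in the day, and each had 3 libraries of polyadenylated, strand-specific RNA. Both groups carried the tumour, so neither is a tumour-free control. No label says that replicates came from separate animals, so the spread between libraries may be technical.

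GIMAP proteins are GTP-binding proteins of vertebrate lymphocytes, related to the septin and dynamin group of GTPases, and most sit on the membranes of organelles. Their genes lie side by side and arose by duplication. They are known for keeping resting T and B cells alive: loss of Gimap5 or Gimap1 in mice leaves few mature lymphocytes outside the thymus and bone marrow.

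The 8 genes occupied 124 kb of mouse chromosome 6 (GRCm38), in the order Gimap8, Gimap9, Gimap4, Gimap6, Gimap7, Gimap1, Gimap5, Gimap3. Gimap6 and Gimap3 lay on the minus strand and the other 6 on the plus strand. Each GIMAP protein holds a phosphate-binding loop that grips GTP, with a glycine, 4 variable residues, and then glycine, lysine and serine or threonine. The coding bases of this loop are shown, read from the GENCODE M21 transcripts, because they show what the members share and how close the copies are. Capitals mark the codons of the first glycine and of the closing glycine, lysine and serine.
Gimap8, first loop: GGGaaacagggcgcaGGCAAAAGT
Gimap8, second loop: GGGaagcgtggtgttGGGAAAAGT
Gimap8, last loop: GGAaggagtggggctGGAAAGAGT
Gimap9: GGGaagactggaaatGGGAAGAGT
Gimap4: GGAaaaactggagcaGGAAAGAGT
Gimap6: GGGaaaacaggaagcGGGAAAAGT
Gimap7: GGGaaaacaggaagtGGAAAGAGC
Gimap1: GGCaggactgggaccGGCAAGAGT
Gimap5: GGCaaatctggctgcGGTAAAAGC
Gimap3: GGCaaatctggctgcGGTAAAAGC
Gimap8 was the member with 3 loops, at chr6:48650256-48650279, chr6:48656119-48656142 and chr6:48658746-48658769, in exons 3, 5 and 6 of 6. Its coding sequence of 688 codons was also the longest, against 291 codons in Gimap9 to 328 in Gimap4 for the other members. Gimap5 (chr6:48752594-48752617, plus strand) and Gimap3 (chr6:48765887-48765910, minus strand) had the same 24 bases. Over 895 aligned coding bases these 2 genes were 90.4% identical. The next closest pair was Gimap7 and Gimap9 with 66.6% identity, and the most distant of the 28 pairs was Gimap1 and Gimap9 with 55.7%.

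Close copies and overlapping gene models limit how well reads can be told apart, so both were measured on the annotation. Of the 75-base words of Gimap3, 3.32% also occur in Gimap5, and 1.97% of those of Gimap5 occur in Gimap3, so most of each transcript was distinct at that length. Gimap4, Gimap6, Gimap8 and Gimap9 shared none with another gene. Gimap1 shared 33.2%, chiefly with Gimap1os, an antisense gene that covers 1107 of its exon bases (36.0%). The strand setting of the counting is not given in the sources used here, so reads in this overlap cannot be assigned to one of them. The read-through model Gm28053 shares 81 exon bases with Gimap7, 198 with Gimap1 and 153 with Gimap5.

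The libraries held 6523019 to 9313078 reads in genes on day 7 and 11385106 to 13316522 on day 14. Genes with a read numbered 13133 to 13806 on day 7 and 18318 to 19053 on day 14. A gene without reads on day 7 was therefore not shown to be absent. The single-library counts of the members ran from 147 to 7843 reads. Most low read numbers were even (75.6% to 87.7% by library), so the replicates were compared in pairs of reads. Between day 7 replicates 1 and 2 the median chi-square ratio over genes was 1.11, where 1 stands for the sampling of read pairs alone. Against day 7 replicate 3 it was 40.9 and 44.4, and between day 14 libraries it was 4.05 to 4.43. Day 7 replicates 1 and 2 were therefore counted as 1 sample, so means ± SD have n = 2 on day 7 and n = 3 on day 14 throughout. The CD8 T cell markers Cd8a, Cd8b1, Cd3d, Cd3e, Cd3g and Trac were present in every library, with a summed level of 330 to 335 RPKM on day 7 and 85.1 to 88.1 on day 14. Melanocyte genes were also high in cells labelled as CD8 T cells: 8 markers summed to 5714 to 5932 RPKM on day 7 and 10457 to 11470 on day 14.

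Every member was lower on day 14 than on day 7, with the lowest day 7 library above the highest day 14 library in 8 of 8. Over all tested genes, 17.8% had such a gap in this direction, a share given for scale only, since the members were selected on it. All 8 members passed the filter on low genes (a mean of 20 CPM, reads scaled to a library of 1000000, over the samples), and 6 of them also had a day 14 mean above it; Gimap9 and Gimap5 did not. The median log2 fold change of the 8 members, day 14 against day 7 on log2(RPKM + 1), was -1.66, and that of all 6691 tested genes was 0.16. In bulk RNA such a value does not separate fewer lymphocytes in the sample from less RNA per lymphocyte. Beside it, the summed level of the CD8 T cell markers was also lower on day 14. Higher on day 14 were the melanocyte sum and the sum of 11 macrophage and monocyte markers (354 to 462 RPKM on day 7, 708 to 724 on day 14). These sums were led by Dct (4431 to 4726, then 8577 to 9681 RPKM) and Lyz2 (186 to 232, then 376 to 392 RPKM). At a limma adjusted p under 0.05, 3 of 8 tested melanocyte and 4 of 10 tested macrophage genes were higher, against 1.76% of all tested genes. Mitf (-0.14), Fcgr1 (-0.54), Adgre1 (-0.27) and C1qc (-0.05) had negative log2 fold changes and were not called. The part of the marker sums in the GIMAP values was not tested.

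**Figure D1:**
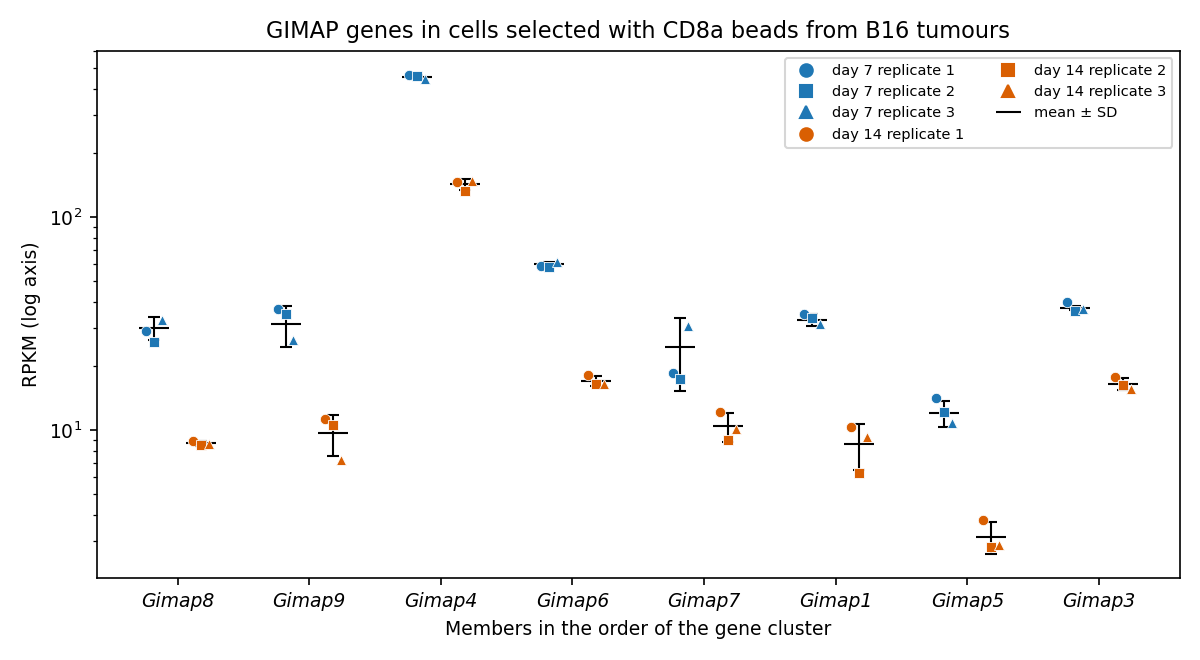
RPKM of the 8 GIMAP genes in the order of the cluster, on a log axis, with 1 symbol per library and black bars for mean ± SD (day 7 with n = 2, replicates 1 and 2 counted as 1 sample; day 14 with n = 3). Day 7 symbols lie above the day 14 symbols for each gene, Gimap4 stands far above the others, and day 7 replicate 3 stands apart for Gimap7.

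Gimap4 (chr6:48684549-48692060), a GIMAP protein studied for its part in T cell death, carried most of the family's signal. It was measured at 465, 458 and 446 RPKM on day 7 and at 146, 132 and 148 RPKM on day 14. Libraries of a day lay close together, and the lowest day 7 library was 3.02 times the highest day 14 library. The mean level was 454 ± 11 RPKM (SD, n = 2) on day 7 and 142 ± 8.6 RPKM (SD, n = 3) on day 14, a log2 fold change of -1.67 (SE 0.12). By RPKM, Gimap4 ranked 99 to 105 among all genes in the day 7 libraries and 315 to 335 in the day 14 libraries. Its level was 7.31 to 7.92 times that of the next member on day 7 and 8.05 to 9.01 times on day 14.

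Gimap6 (chr6:48701582-48708225), which binds ATG8-family proteins of the autophagy machinery, was second in every library. Its levels were 59.0, 57.9 and 61.1 RPKM on day 7 and 18.2, 16.4 and 16.4 RPKM on day 14. The mean was 3.52 times as high on day 7, and the log2 fold change was -1.76 (SE 0.22). Its level in day 7 replicate 3 was 1.05 times the mean of the other day 7 libraries, so the library that stood apart over all genes did not do so here.

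The near-copies Gimap3 and Gimap5 differed in level and in the size of the difference between days. Gimap3 (chr6:48764464-48770851), found on the outer mitochondrial membrane, was at 39.9, 36.1 and 36.9 RPKM on day 7 and at 17.7, 16.2 and 15.5 RPKM on day 14. Gimap5 (chr6:48746197-48754210), a protein of lysosomes and related vesicles that is needed for T cell survival, was at 14.1, 12.2 and 10.8 RPKM on day 7 and at 3.79, 2.82 and 2.88 RPKM on day 14. Gimap5 had the lowest mean of the 8 members on each day. The log2 fold change was -1.14 (SE 0.25) for Gimap3 and -1.64 (SE 0.36) for Gimap5. The ratio of Gimap3 to Gimap5 in RPKM was 2.84, 2.96 and 3.42 on day 7 and 4.68, 5.76 and 5.40 on day 14, so Gimap3 took more of the pair's signal in each day 14 library. At the low level of Gimap5 the added 1 RPKM pulls its fold change toward 0: with 0.1 added, it was -1.89.

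Gimap7 and Gimap9 were the second closest pair in sequence and the members with the most uneven day 7 libraries. Gimap7 (chr6:48718621-48724636), whose GTPase activity is known to depend on pairing of its GTP-binding domains, was at 18.5, 17.4 and 30.9 RPKM on day 7 and at 12.1, 8.97 and 10.1 RPKM on day 14. Day 7 replicate 3 was 1.72 times the mean of replicates 1 and 2, and the lowest day 7 library was only 1.44 times the highest day 14 library, the smallest gap of the 8. Its log2 fold change was -1.12 (SE 0.34), and -0.74 without day 7 replicate 3. The overlapping read-through model Gm28053 had 41.4 RPKM in that library against 23.3 and 21.5 in the other day 7 libraries, and its part in the Gimap7 value was not tested. Gimap9 (chr6:48676129-48679114) went the other way in that library, with 37.1, 35.1 and 26.5 RPKM on day 7 and 11.2, 10.5 and 7.23 RPKM on day 14. Its log2 fold change was -1.61 (SE 0.38). The ratio of Gimap7 to Gimap9 was accordingly 0.497, 0.497 and 1.16 on day 7 and 1.08, 0.857 and 1.39 on day 14, with overlap between the days.

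Gimap1 (chr6:48739054-48743795), which is needed for mature T and B cells, was at 35.2, 33.7 and 31.4 RPKM on day 7 and at 10.3, 6.30 and 9.29 RPKM on day 14. Its day 14 libraries were the most uneven of any member, with the highest 1.63 times the lowest, and its ratio of day means was the widest at 3.82. The log2 fold change was -1.84 (SE 0.38). Gimap8 (chr6:48647234-48660875), the long member with 3 GTP-binding domains, was at 29.1, 26.0 and 32.8 RPKM on day 7 and at 8.88, 8.46 and 8.59 RPKM on day 14. Its day 14 libraries were the closest of any member, the highest being 1.05 times the lowest, and its log2 fold change was -1.69 (SE 0.27).

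Levels per gene length could be put in order within each day. On day 7 the order of mean RPKM was Gimap4, Gimap6, Gimap3, Gimap1, Gimap9, Gimap8, Gimap7, Gimap5. Gimap4, Gimap6 and Gimap3 did not overlap the next member between day 7 libraries, nor did Gimap7 overlap Gimap5, while the successive neighbours Gimap1, Gimap9, Gimap8 and Gimap7 overlapped between libraries. On day 14 the order was Gimap4, Gimap6, Gimap3, Gimap7, Gimap9, Gimap8, Gimap1, Gimap5. There Gimap6 and Gimap3 overlapped, and so did the successive neighbours from Gimap7 to Gimap1. Gimap7 was below Gimap1 and Gimap8 in each day 7 library and above both in each day 14 library, while its order against Gimap9 varied between libraries of a day.

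The make-up of the family varied less than its sum. The 8 members together reached 698, 677 and 677 RPKM on day 7 and 229, 202 and 218 RPKM on day 14. They took 0.151% ± 0.00051 (SD, n = 2) of all reads on day 7 and 0.0474% ± 0.0031 (SD, n = 3) on day 14. Gimap4 made up 66.6% ± 0.88 (SD, n = 2) of the summed RPKM on day 7 and 65.8% ± 1.9 (SD, n = 3) on day 14, a difference inside the spread of the libraries. Gimap3 took 5.72%, 5.34% and 5.46% on day 7 and 7.75%, 8.05% and 7.14% on day 14, so its share was higher in each day 14 library. Gimap6 took 8.45%, 8.55% and 9.03% on day 7 and 7.96%, 8.13% and 7.53% on day 14, and Gimap1 4.64% to 5.04% and 3.12% to 4.50%, so both shares were lower in each day 14 library. Gimap7 took 2.64%, 2.57% and 4.56% on day 7 and 5.29%, 4.45% and 4.63% on day 14, where day 7 replicate 3 lay within the day 14 values.

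**Figure D2:**
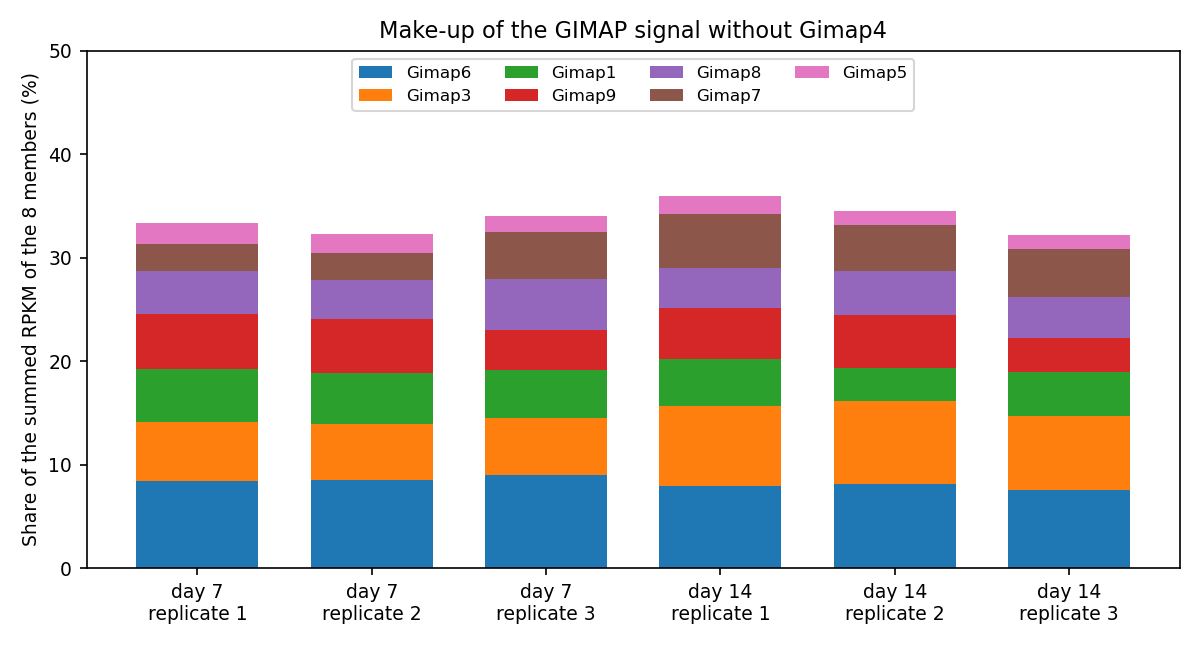
Share of the summed RPKM of the 8 GIMAP genes taken by each member other than Gimap4, in percent, as stacked bars with 1 bar per library. Gimap6 and Gimap3 take the largest shares, the Gimap3 band is wider in the day 14 bars (7.14% to 8.05%) than in the day 7 bars (5.34% to 5.72%), and the Gimap7 band is wider in day 7 replicate 3 than in the other day 7 bars.

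The members were then set against T cell transcripts in the same library. The list used for this, 12 genes of the T cell receptor and its signalling (Cd3d, Cd3e, Cd3g, Cd247, Trac, Trbc2, Cd2, Cd5, Cd6, Lck, Zap70 and Lat), summed to 428, 415 and 418 RPKM on day 7 and to 110, 106 and 123 RPKM on day 14. Single genes of the list were less even than this sum in day 7 replicates 1, 2 and 3. Cd3d was at 31.5, 33.7 and 61.2 RPKM and Cd2 at 77.8, 71.7 and 104. Cd3e went the other way with 30.9, 27.0 and 11.2, and so did Lat with 20.5, 20.6 and 7.2. The close day 7 sums therefore do not show that the scale itself is steady. The T cell sum was 3.72 times as high on day 7 and the GIMAP sum 3.16 times. Per 100 RPKM of T cell genes, the libraries held 163, 163 and 162 RPKM of GIMAP genes on day 7 and 209, 190 and 177 on day 14. On this scale each day 14 library lay above each day 7 library, the reverse of the order in RPKM. The T cell sum weighs its genes by level, so it is carried by the most abundant ones. By the median gene the difference had the other direction, with a median log2 fold change of -1.48 for the 10 tested T cell genes and -1.66 for the members. Its size varied: the medians were -1.66 and -1.74 with 0.1 RPKM added, and -1.62 and -1.64 without day 14 replicate 3. Trbc2 (45.2 to 9.80 RPKM) and Cd5 (2.20 to 2.74 RPKM) were not tested. The pooled SD within a day was 0.14 for the mean of the T cell genes and 0.105 for that of the members, so the medians set no firm order.

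By member on the same scale, Gimap3 went from 9.34, 8.71 and 8.84 RPKM per 100 on day 7 to 16.2, 15.3 and 12.6 on day 14, and its mean was 1.65 times as high on day 14. Gimap7 went from 4.32, 4.20 and 7.38 to 11, 8.45 and 8.18, with a ratio of 1.59. Gimap4 went from 109, 110 and 107 to 134, 124 and 120, with a ratio of 1.16. For these 3 members no day 14 library overlapped a day 7 library. The share of all genes with such a gap on this scale was not counted. Division by the T cell sum raised most genes: limma then called 6315 of 6691 tested genes higher on day 14 (adjusted p under 0.05). Gimap8, Gimap9, Gimap6, Gimap1 and Gimap5 overlapped between the days, with ratios of 1.07, 1.16, 1.06, 0.971 and 0.989. Scaling the fit by the T cell sum in the same way gave a median log2 fold change of 0.14 for the members, against 1.91 for all genes tested. The division shifts all genes of a library nearly alike, so it bears on the sign and not on the members' place among other genes.

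**Figure D3:**
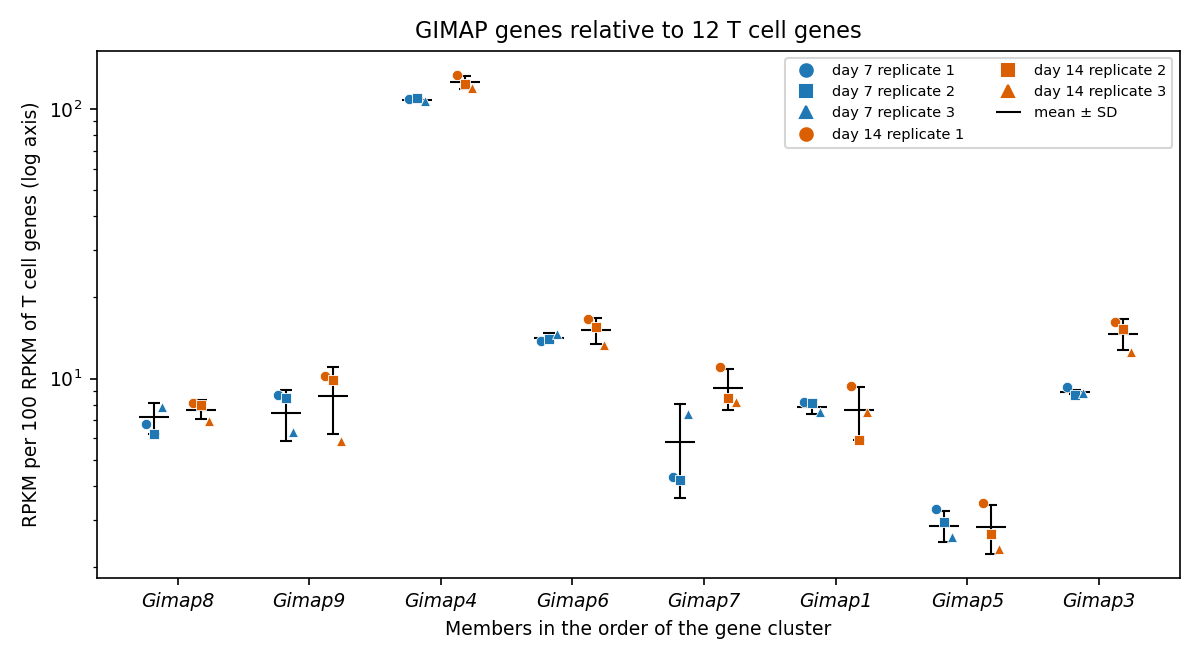
RPKM of each GIMAP gene per 100 RPKM of the 12 T cell genes, on a log axis, with 1 symbol per library and black bars for mean ± SD (day 7 n = 2, day 14 n = 3). Gimap3, Gimap7 and Gimap4 lie higher in every day 14 library, and the symbols of the other 5 genes overlap between the days.

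Other lymphocytes also carry GIMAP transcripts, so their markers are given beside the members. A summed level of 7 NK cell markers was 129 to 173 RPKM on day 7 and 16.4 to 19.5 on day 14. All 4 tested NK genes, Klre1, Klra8, Klra9 and Eomes, were called lower (limma, adjusted p under 0.05), against 3.15% of all tested genes. The filter on low genes took the mean over both days, so a gene could pass it by its day 7 level alone. These 4 ran from 8.35 to 58.8 RPKM across day 7 libraries and from 1.70 to 6.01 across day 14 libraries. Such a filter favours lower calls, so the count of 4 is a description only. Ncr1, Klrb1c and Klri2 were not tested, and Eomes is counted again below among the T lineage factors. The 4 CD4 T cell markers summed to 47.6 to 59.7 RPKM on day 7 and 30.0 to 35.5 on day 14, with 0 of 3 tested genes called and Cd40lg at 0 in the day 7 libraries. The 8 B cell markers summed to 3.75 to 15.8 RPKM on day 7 and 2.07 to 3.96 on day 14, and 12 endothelial markers to 6.74 to 8.92 and 6.70 to 7.52, too low for the test. The 8 dendritic cell markers summed to 18.7 to 40 and 14.6 to 19.4 RPKM, with Ccr9 at 0 on day 7 and 0 of 1 tested gene called, and 7 fibroblast markers to 1.42 to 2.28 and 1.63 to 1.81. The NK cell sum was lower on day 14, as was the GIMAP sum, but by a larger factor than the 3.16 of the GIMAP sum. The part of NK cells in the GIMAP values was not tested.

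The genes around the cluster were read from the same fit. Of 31 other genes starting within 500 kb of the cluster, 4 were high enough to be tested and 1 was called. For comparison, 4.92% of all tested genes were called in either direction, 1.76% as higher and 3.15% as lower on day 14. The called neighbour was Gpnmb, a glycoprotein of melanosomes and macrophages that starts 389 kb after the start of Gimap8. It rose from 162 ± 12 RPKM (SD, n = 2) to 290 ± 5.1 RPKM (SD, n = 3), a log2 fold change of 0.84 (SE 0.15, limma adjusted p = 0.00808, and 1.86e-05 to 0.0468 under 14 alternatives without the scaling by T cell genes). It moved with the melanocyte and macrophage sums given above.

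Closer to the cluster, Tmem176b, a membrane protein gene that follows Gimap3, was at 12.9, 12.9 and 23.9 RPKM on day 7 and at 17.4, 15.6 and 17.3 RPKM on day 14. Its log2 fold change was -0.07 (SE 0.34, limma adjusted p = 0.942). Tra2a, a splicing factor gene at the far edge of the window, went from 38.9 ± 11 to 45.6 ± 0.98 RPKM (limma adjusted p = 0.613). Inside the cluster, Gm28053 was at 31.9 ± 13 RPKM on day 7 and 16.5 ± 2.9 RPKM on day 14, with a log2 fold change of -0.86 that was not called (limma adjusted p = 0.23). The predicted gene Gm10243, before the cluster, had 68.6 and 64.5 RPKM in day 7 replicates 1 and 2, 0 in replicate 3 and 3.35 to 6.77 on day 14, and was not tested. The antisense Gimap1os, named after its values were seen, was at 6.15 ± 1.9 and 4.05 ± 0.88 RPKM.

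**Figure D4:**
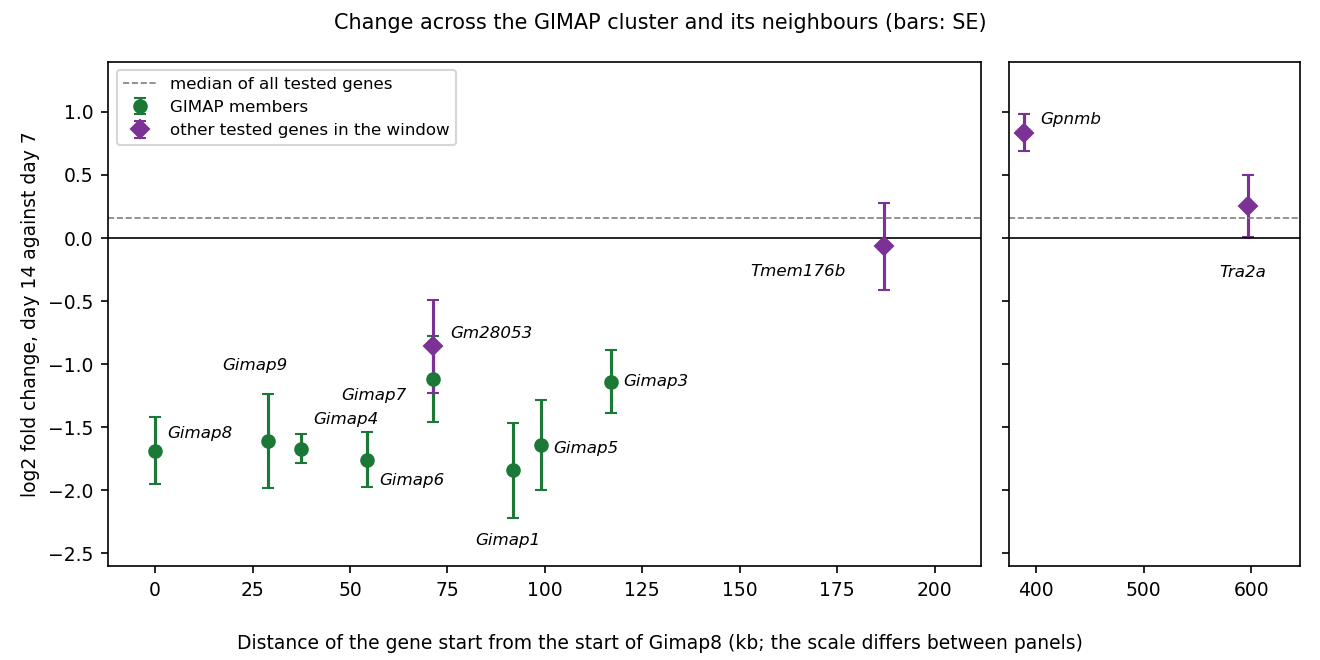
Log2 fold change, day 14 against day 7 on log2(RPKM + 1), of the 8 GIMAP genes (green circles) and the 4 other tested genes of the window (purple diamonds) by distance of the gene start from the start of Gimap8, with bars for the SE. The members lie between -1.84 and -1.12, Gm28053 at -0.86 lies inside the cluster, and the 3 tested genes beyond it lie between -0.07 and 0.84.

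Genes that act with GIMAP proteins were read from lists around their known functions. Among the T cell genes used for scaling, 5 of 10 tested were called lower and 0 higher, against 3.15% and 1.76% of all tested genes. Their median log2 fold change was -1.48 against 0.16 for all genes. Trac, the T cell receptor alpha constant chain, went from 78.1 ± 15 to 14.9 ± 2.6 RPKM (log2 fold change -2.32, limma adjusted p = 0.000669). Lck, the kinase that starts receptor signalling, went from 60 ± 10 to 11.9 ± 2.2 RPKM (-2.25, adjusted p = 0.00152), and Cd2, an adhesion receptor, from 89.3 ± 21 to 25.0 ± 2.5 RPKM (-1.78, adjusted p = 0.000989). Cd3d, a chain of the receptor complex, went from 46.9 ± 20 to 9.60 ± 1.7 RPKM (-2.12, adjusted p = 0.00383). Without day 7 replicate 3, with the day 7 weights kept, Cd3d was not called (adjusted p = 0.0976; over 14 alternatives 2.36e-05 to 0.0976). The remaining call of this list, Cd6, had an adjusted p of 0.0447 and lost its call when day 7 replicate 1 or any day 14 replicate was left out (0.0516 to 0.0753) and over 14 alternatives ranged from 7.38e-05 to 0.165, the latter without day 7 replicate 3 and with the weights kept.

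Of 9 tested genes of lymphocyte quiescence and survival, 2 were called lower, against 3.15% of all tested genes, 0 were called higher, and the median was 0.04. This median had no stable sign: it was -0.55 without day 7 replicate 3, -0.69, -0.74 and -0.33 without day 14 replicates 1, 2 and 3, and -0.49 without the filter on low genes. For every list, such a median took the genes that passed the filter of that setting, so the set of genes could change. Cd27, a co-stimulatory receptor that supports T cell survival, went from 33.9 ± 7.2 to 9.05 ± 0.68 RPKM (log2 fold change -1.78, limma adjusted p = 0.00371). Without day 7 replicate 3 and with the weights kept its adjusted p was 0.0704 (range over 14 alternatives 1.15e-05 to 0.0704). Satb1, a chromatin organiser of T cells, went from 4.35 ± 0.66 to 0.787 ± 0.048 RPKM (-1.58, adjusted p = 0.0473) and lost its call without day 7 replicate 1 or any day 14 replicate (0.0601 to 0.0741). Over 14 alternatives its adjusted p ranged from 2.95e-05 to 0.314, the latter without day 7 replicate 3 and with the weights kept. Of 9 tested T lineage transcription factors the median was -0.52, 0 were called higher and 1 was called lower, against 3.15% of all tested genes. This was Eomes, a T-box factor of effector T cells and NK cells, at 9.06, 8.35 and 9.0 RPKM on day 7 and 2.22, 2.15 and 2.46 RPKM on day 14 (-1.59, adjusted p = 0.0191, with a range of 0.00113 to 0.0674 over 12 alternatives, the latter without the filter on low genes). Without day 7 replicate 3 Eomes did not pass the filter, so the range leaves those alternatives out.

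In the 3 remaining lists limma called 0 of 23 tested genes, against 4.92% of all tested genes, so few calls would be found at the background share. At an unadjusted limma p under 0.05 there were 3, all lower on day 14: Bcl2 (log2 fold change -0.96), Bid (-1.09) and Axin1 (-0.70). Bcl2 and Bid are named after their values were seen. On the recovered reads, limma-voom called 5 of these 23, beside 2145 of all 6691 tested genes. Of 8 tested BCL2 family genes, whose products some GIMAP proteins bind, the median was -0.13. It was -0.49 without day 7 replicate 3, -0.22 without day 14 replicate 3, -0.01 without day 14 replicate 1 and 0.26 without the filter on low genes. Mcl1, the most abundant, went from 131 ± 23 to 129 ± 4.4 RPKM (limma adjusted p = 0.987) and Bak1 from 19.5 ± 6.6 to 16.2 ± 4.9 RPKM (adjusted p = 0.838). Of 9 tested genes of ATG8 proteins and autophagy, the machinery that Gimap6 binds, the median was 0.05, and 0.03 to 0.08 with 1 library left out. It was 0.11 with limma-voom and -0.10 with median-of-ratios size factors, which moved the median of all genes to 0.01. Sqstm1, a cargo receptor, went from 132 ± 18 to 158 ± 8.8 RPKM (adjusted p = 0.439), and Atg3, the enzyme that attaches ATG8 proteins to lipid, from 67.9 ± 3.8 to 70.6 ± 4.8 RPKM (adjusted p = 0.924). Of 6 tested genes of the GSK3 pathway, which Gimap5 restrains in T cells, the median was 0.13, with 0.07 without day 14 replicate 2 and -0.02 without day 7 replicate 3. Ctnnb1, encoding the GSK3 target beta-catenin, went from 95.3 ± 9.5 to 112 ± 4.0 RPKM (adjusted p = 0.524), and Axin1, its scaffold, from 21.6 ± 0.42 to 12.9 ± 1.1 RPKM (adjusted p = 0.223).

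The genes most like the family were found by the root-mean-square difference, over the 6 libraries, between a gene and the mean of the members, each as log2(RPKM + 1) centred on its own mean. Among 6327 genes compared, the median difference was 0.901. The closest was Fam105a at 0.069, followed by Ptprc at 0.074, Gbp8 at 0.081, Gbp4 at 0.087, Eomes at 0.091, Gbp6 at 0.093, Sla at 0.1, Igtp at 0.111, Pstpip1 at 0.112 and Tyk2 at 0.114. Ptprc encodes CD45, the phosphatase of all white blood cells, and was at 116, 115 and 121 RPKM on day 7 and 42.4, 40.9 and 41.0 RPKM on day 14. Igtp, an interferon-inducible GTPase, was at 157, 147 and 159 RPKM on day 7 and 52.6, 53.9 and 57.8 RPKM on day 14. Gbp8, a guanylate-binding protein, was at 106, 101 and 92.5 RPKM and 33.6, 29.7 and 29.7 RPKM. Of the members themselves, Gimap4 (0.093), Gimap6 (0.103) and Gimap8 (0.106) lay closest to the family mean, and Gimap7 (0.374) lay farthest. The order rests mainly on the step between the 2 days, which all these genes share.

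The promoters were read as the 250 bases before each gene's start in RefSeq (GRCm38.p6), and all 8 members were matched. The RUNX core TGTGGT, searched on both strands, occurred in 3 of the 8 windows, against 14.0% of 32851 windows of the same length over all genes. Those 3 are printed, since RUNX factors act widely in T cell genes. The capitals mark the match, which reads ACCACA because it lies on the opposite strand.
Gimap4: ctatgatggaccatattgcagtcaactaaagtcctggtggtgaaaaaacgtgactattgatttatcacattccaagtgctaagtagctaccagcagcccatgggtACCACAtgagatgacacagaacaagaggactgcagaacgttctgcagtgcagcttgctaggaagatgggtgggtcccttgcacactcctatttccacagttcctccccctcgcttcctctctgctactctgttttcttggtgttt
Gimap7: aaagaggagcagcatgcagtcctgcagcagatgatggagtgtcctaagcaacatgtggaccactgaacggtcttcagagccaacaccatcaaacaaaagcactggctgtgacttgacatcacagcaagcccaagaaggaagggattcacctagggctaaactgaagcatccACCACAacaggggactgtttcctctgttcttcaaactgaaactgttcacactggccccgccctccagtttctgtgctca
Gimap1: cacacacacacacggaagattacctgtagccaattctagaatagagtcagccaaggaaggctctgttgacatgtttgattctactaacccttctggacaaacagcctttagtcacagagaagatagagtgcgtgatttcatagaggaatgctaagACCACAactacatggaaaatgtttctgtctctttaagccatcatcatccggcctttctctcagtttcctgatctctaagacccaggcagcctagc
The windows are chr6:48684328-48684577, chr6:48718371-48718620 and chr6:48738797-48739046, all on the plus strand, and the matches begin 145, 79 and 95 bases before the start. The ETS motif AGGAAGT occurred in 1 window (Gimap5) against 7.69% of all windows. The STAT motif TTCNNNGAA occurred in 1 (Gimap6) against 7.02%, the TATA box TATAAA in 1 (Gimap6) against 12.4%, and the TCF/LEF core CTTTGA in 0 against 13.8%. A match says only that these letters stand in the window. Of the factors, Runx3 was at 6.30 ± 1.5 RPKM on day 7 and 2.63 ± 0.60 RPKM on day 14 (limma adjusted p = 0.285) and Runx1 at 2.37 ± 1.8 and 1.67 ± 0.26 RPKM (adjusted p = 0.844). Both were named with the motif after their values were seen, and neither was called.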

How the data were processed

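RNA from 6 libraries was measured, 3 per day. The authors deposited RPKM, reads per gene divided by gene length and by the reads in genes; Trimmomatic 0.36, Subread 1.5.1 (featureCounts) and GRCm38 are listed per the submitters' processing notes. Which aligner was used, how molecular identifiers entered the counting and its strand setting: not given in the sources used here. Value times length gave whole reads in every gene (largest deviation 4.10e-05, tolerance 0.001), which set library sizes and CPM.

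limma 3.58.1 in R 4.3.3 was fitted to log2(RPKM + 1) of 6691 genes whose mean over 5 samples reached 20 CPM (day 7 replicates 1 and 2 averaged), with precision weights per day (loess span 0.3, floor 0.005) and a variance trend. A gene could pass this filter by its level on 1 day alone, which favours a call as lower on the other day. A gene was called where its p, adjusted by Benjamini-Hochberg, was under 0.05. Tested on simulated data, the fit recovered nearly all large changes, and more of its calls were false than the threshold implies. Members, lists, filter and weights were chosen with earlier results of these data known, so no list is independent evidence. Named genes are the members, called neighbours and the 4 other neighbours highest by RPKM, the called genes of each list (at most 4 by p, or the 2 highest), and the 10 genes most like the family. Exceptions are stated. Sequences came from GENCODE M21 and RefSeq.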

Additional observations from a re-analysis of the deposited data

How the results depend on the processing

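Each of the 8 members stayed lower on day 14 under every alternative but division by the T cell sum. There the members' median was 0.14 and Gimap3, Gimap4, Gimap6, Gimap7, Gimap8 and Gimap9 were at 0.69, 0.22, 0.079, 0.67, 0.094 and 0.18; Cd6, Cd2 and Cd27 also turned, to 0.35, 0.074 and 0.006; 6332 genes were called, 6315 higher and 17 lower, with 4 neighbours and 31 list genes. The members' median was -1.80 with median-of-ratios factors, which moved the median of all genes to 0.01 and gave 357 calls (67 higher, 290 lower), and -1.78 with limma-voom on recovered reads.

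Against 329 calls (118 higher, 211 lower), 1 called neighbour and 8 called list genes, there were 1450 calls (1153 higher) and 3 neighbours without the filter. Without weights there were 1011 (601 and 410) with 15 list genes, with the 6 libraries counted singly 1599 (974 and 625) with 21, and with limma-voom 2145 (1436 and 709) with 22. Same-numbered replicates did not deviate together (correlations -0.014, -0.015 and -0.034); with a replicate block there were 1169 calls (647 and 522) with 16 list genes.

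Leaving out 1 library at a time gave a members' median of -1.71 to -1.62, 260 to 3886 calls, 68 to 2414 higher, 192 to 1472 lower, 1 to 2 neighbours and 6 to 27 list genes. The highest counts came without day 7 replicate 3, where the single day 7 sample is assumed to vary like day 14; with the day 7 weights kept, an alternative chosen after seeing the data, there were 224 calls (104 lower) and 4 list genes. Without day 14 replicate 1 there were 68 higher calls. How many molecules the reads stand for is unknown, so no limits from counting are given.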
